A study of Danio rerio with 80 samples.

Results

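The collagen genes of the adult zebrafish brain are described here across 80 whole brains. They were chosen by name: of 23473 entries in the deposited expression table, 57 have a symbol that begins with col and a digit and has an a after it, and the 41 of these whose mean log2 level over all 80 fish was at least 0 were kept. The 41 entries held 39 lines for 38 collagen genes, since col14a1b stands on 2 lines, chr19:49721-55914 (line 1) and chr19:56351-61467 (line 2) of GRCz11, both on the plus strand. The other 2, col4a3bpa and col4a3bpb, take their symbol from an older name of a ceramide transfer protein, a carrier of lipid between membranes, and encode no collagen. The working name of the set, collagens of meninges and vessels, was checked against markers of those cells and is taken up with the covariation below. The name and the mean level over all 80 fish chose the entries, and neither used sex, exposure or age. Differences between sexes, exposures and ages were therefore free to go either way, except for entries with a mean close to 0. Such entries, col4a1 and col4a2 among them, were kept only through the groups where they were higher.

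Collagens are secreted proteins in which 3 chains wind into a triple helix. Fibrillar types form the cables of connective tissue, the type IV network carries basement membranes, and other types decorate fibrils, anchor membranes or surround cells. In a brain they come mainly from fibroblasts of the meninges and around vessels, from mural and endothelial cells and from the basement membranes these cells share with glia, while cartilage, bone and skin around the brain use several of the same genes.

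Larvae of the AB wild-type strain were exposed from 6 to 96 hours after fertilisation, then raised in clean water to adulthood and sampled at 219 to 240 days, and the brain of each fish was sequenced on its own. The exposed groups were POP10 and POP70, a mixture of persistent organic pollutants at 10 and 70 times the mean levels in Scandinavian blood, and PFOS10 and PFOS70, perfluorooctane sulfonate alone at 0.3 and 2.06 mg/L, the amounts in the mixture. Control larvae had the solvent alone, 0.1% DMSO, which the exposed larvae had too. Each condition had 8 females and 8 males from 4 exposure replicates numbered 3 to 6, with 2 females and 2 males in each. The number goes with age in every condition: number 6 was sampled at 219 days, number 5 at 226, number 4 at 233 and number 3 at 240, so age, sampling day and number cannot be told apart.

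Levels are on the deposited log2 scale, on which a value of 0 stands for between 7.12 and 14.4 reads depending on the library. The libraries held 9006319 to 20347693 reads on listed genes (median 12141217). Transcript lengths were not used here, so levels order fish and not genes. Neuron markers summed to between 11741 and 16854 units per fish and the meningeal fibroblast markers to between 1146 and 7159, with no listed gene of either list at a median of 0 reads, so the labelled tissue carried both. The sum of 12 keratinocyte and skin markers had a median of 63.6, and 2 fish stood apart, PFOS10 female 6_2 at 2517 and Control female 3_1 at 923, against 429 in the next. A single principal component of the tested genes outside the collagens took 40.1% of the variance and is called the composition component here. That name is a label only, and whether it measures cell composition was not tested. Over fish, the means of neuron, endothelial, radial glia and oligodendrocyte markers all rose with it (r = 0.93, 0.77, 0.70 and 0.47). Those of skin and red cells had r = −0.19 and −0.07. The component comes from these same libraries, so it can carry the differences under test. In a whole brain, fewer cells of a type and less RNA per cell cannot be told apart.

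By structural class, 13 entries were fibrillar chains, 9 were fibril-associated chains (FACIT), 5 were type IV network chains, 7 were beaded-filament chains of types VI and XXVIII, 2 were anchoring type VII chains, 2 were multiplexins, 1 was a short chain of type VIII and 2 were no collagens. Among fibrillar chains, col2a1b (chr11:32007-55224), a type II chain, had the most reads with a mean log2 level of 6.26 ± 0.34 (SD, n = 80), and col1a1b (chr12:3095699-3133483) and col5a1 (chr21:6556635-6725780), chains of types I and V, had 5.17 ± 0.62 and 4.08 ± 0.38. The FACIT chains with most reads were col14a1a at 6.05 ± 0.25, col14a1b line 2 at 5.10 ± 1.0 and col19a1 at 4.81 ± 0.45. These chains sit on the surface of fibrils and do not form fibrils themselves.

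Of the type IV network chains col4a6 (chr7:50920437-51102479) averaged 2.52 ± 0.53, col4a5 (chr7:51103232-51194430) averaged 2.29 ± 0.46 and col4a4 averaged 0.31 ± 1.52. The pair that forms most basement membranes in vertebrates, col4a1 (chr9:8634229-8670158) and col4a2 (chr9:8761099-8882901), stood at 0.03 ± 1.35 and 0.02 ± 1.56, medians of 11 and 10 reads a library. These were the entries just inside the level limit, with col11a1b at 0.05, and col5a3a at −0.25, col21a1 at −0.39 and col8a2 at −0.43 fell just outside it. Of the beaded-filament chains col6a1, col6a3 and col28a2a averaged 3.79 ± 0.37, 3.67 ± 0.31 and 2.07 ± 1.31. The anchoring chains col7a1l and col7a1 averaged 4.70 ± 0.60 and 3.46 ± 0.57, the multiplexins col18a1a and col15a1b, basement membrane collagens that carry sugar chains, 4.47 ± 0.39 and 3.26 ± 0.67, and col8a1b 1.17 ± 1.06. Of the 41 entries, 12 had a median under 30 reads and 5 had at least 1 library at 0 reads, which the deposited scale holds as 0.9 read. Another listed gene overlaps 4 of the 41: col7a1l overlaps 3 unnamed genes on its own strand, col5a3b overlaps 1 on its own strand, and col1a2 and col4a4 each overlap 1 on the other strand, and the kit is not stated to keep strand, so reads of these genes could have been shared.

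**Figure D1:**
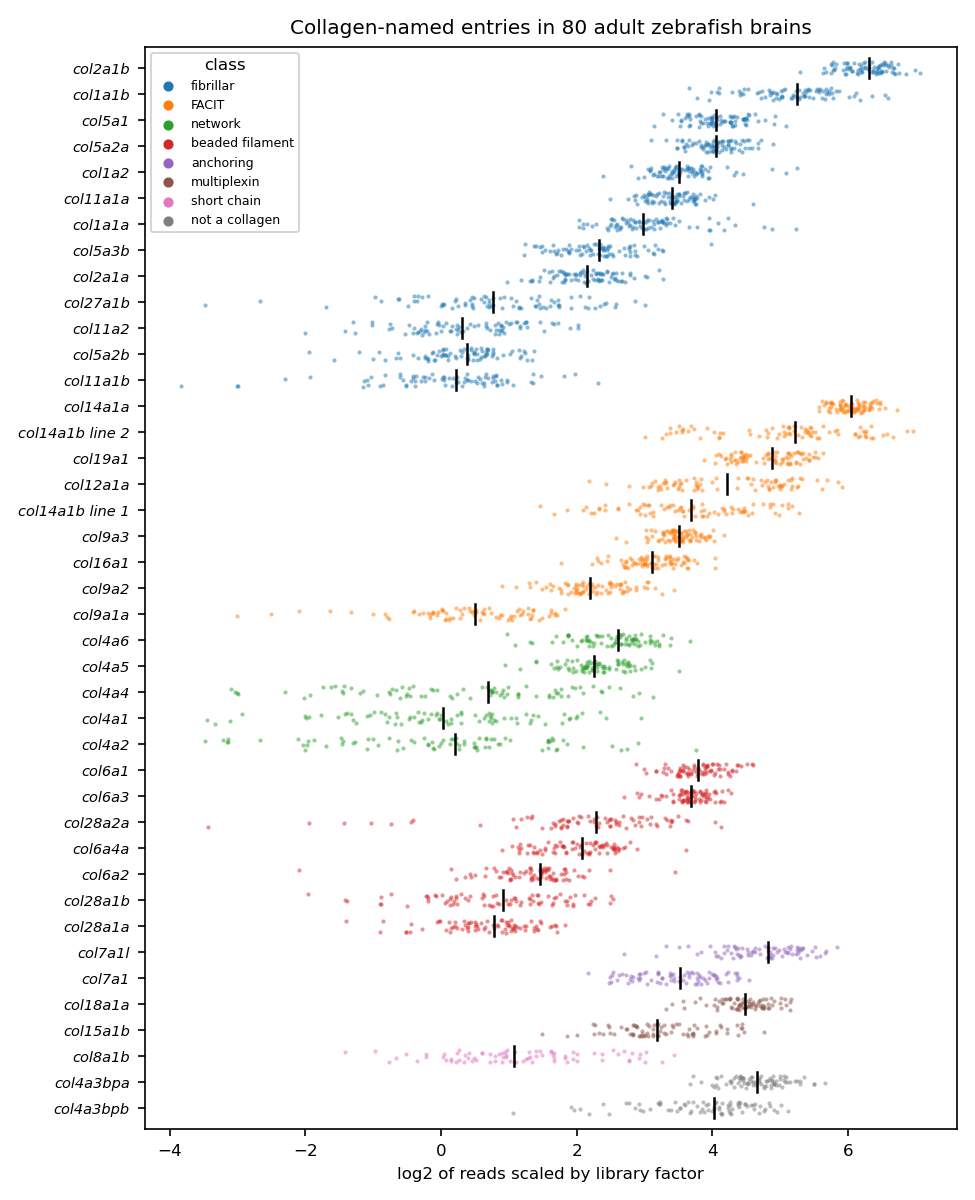
Log2 level (horizontal axis, deposited log2 scale) of each of the 41 entries in each of 80 fish, grouped and coloured by structural class; each point is a fish and the black bar is the median. col2a1b and col14a1a have the most reads, not corrected for length, and narrow spreads, while the type IV chains col4a1, col4a2 and col4a4 spread over more than 5 log2 units around 0.

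The first question is whether larval exposure left a difference in collagen RNA of the adult brain. None was called. In each of the 4 comparisons with Control, 0 of 41 entries passed an adjusted p of 0.05 in limma, where the background was also 0% of 16170 entries tested. At an unadjusted p under 0.05 in limma there were 0 entries for POP10, 0 for POP70, 2 for PFOS10 and 1 for PFOS70. Over all entries tested the shares at that p were 0.79%, 0.33%, 3.03% and 0.92%. On the recovered reads voom called 0 in each as well. In the test of any exposure 0 entries were called, against 0.00618% of all entries, and voom called 0. An unadjusted p under 0.05 in limma was found for 0 entries there, beside 0.26% of all entries. The 4 comparisons share their 16 control fish, so their values are not independent of each other.

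The entries nearest to a call were col6a2 and col4a1. The type VI chain col6a2 (chr11:33921358-33960318) had its lowest, median and highest log2 levels at −2.09, 1.18 and 1.84 in PFOS10 fish, against 0.91, 1.57 and 3.45 in Control fish. The groups overlapped, and their tails rested on single fish: PFOS10 female 6_1 held 2 reads and Control female 3_1, which was also high in skin markers, held 90. The log2 difference for PFOS10 was −0.76 ± 0.29 (SE), with an unadjusted p of 0.0117 and an adjusted p of 0.80 in limma. Over exposure replicates the means were 0.97 ± 0.42 in PFOS10 and 1.72 ± 0.31 in Control (SD, n = 4 each), and the exact permutation test, two-sided, gave 0.0286, the smallest p that 4 against 4 allow. The PFOS10 mean was below the Control mean in 4 of 4 numbers, where the exact paired test gave 0.125, again its smallest possible value. In all, 32 such tests were run, 8 entries in 4 comparisons, with no correction. The 8 entries were those of smallest unadjusted p in the exposure comparisons of the same fish. These permutation tests therefore add no independent support. The same chain averaged 1.28 ± 0.38 in POP10, 1.41 ± 0.44 in POP70, 1.27 ± 0.50 in PFOS70 and 1.72 ± 0.60 in Control fish (SD, n = 16 each), differences from the shared controls of −0.44, −0.31 and −0.45 for these 3 exposures. Without the 2 fish high in skin markers the PFOS10 difference was −0.75.

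The basement membrane chain col4a1 had its lowest, median and highest log2 levels at −2.0, 0.70 and 2.95 in PFOS10 fish, at −3.45, 0.89 and 2.34 in PFOS70 fish and at −3.33, −0.39 and 1.33 in Control fish. All 3 ranges overlapped, and the Control median corresponds to 7 reads. Group means of col4a1 were 0.58 in PFOS10, 0.57 in PFOS70, −0.13 in POP10, −0.30 in POP70 and −0.57 in Control fish. It therefore passed the level limit, with 0.03 over all fish, only through the PFOS groups. Its PFOS differences are not free of the choice of entries. The differences were 1.15 ± 0.57 for PFOS10 (unadjusted p = 0.0465, adjusted p = 0.80 in limma) and 1.14 ± 0.57 for PFOS70 (unadjusted p = 0.049, adjusted p = 1.0), and the exact permutation test over exposure replicates gave 0.229 and 0.257. Both PFOS means were above the Control mean in 4 of 4 numbers, where the exact paired test gave 0.125, the smallest p it allows. Its partner col4a2 was at 1.27 ± 0.70 for PFOS10 (adjusted p = 0.80 in limma). The composition component moved the same way, with means of −0.03 in POP10, −0.16 in POP70, 0.40 in PFOS10, 0.16 in PFOS70 and −0.36 in Control fish. With the component as a covariate the PFOS10 differences of col4a1 and col4a2 were 0.41 and 0.42. The component comes from the same libraries, and its part in these differences was not tested.

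Among the mixture groups the 3 entries of smallest p had smaller differences. Outside those 3, col4a2 was at 0.95 for POP10, the highest POP10 difference of the 41, and at 0.34 for POP70, beside 0.79 for PFOS70. Its POP10 mean was above the Control mean in 4 of 4 numbers. The exact permutation test over exposure replicates gave 0.314 for it, and the paired one 0.125, the smallest p it allows. For POP10 the 3 entries of smallest p were col7a1l, an anchoring chain, at −0.50 ± 0.26, col1a1b at −0.43 ± 0.26 and col6a2 at −0.44 ± 0.29 (adjusted p = 1.0 in limma for each). For POP70 they were col9a2, a FACIT chain, at −0.33 ± 0.24, col1a1a at −0.36 ± 0.29 and col14a1a at −0.12 ± 0.11 (adjusted p = 1.0 in limma for each). The exact permutation test of col9a2 gave 0.0571 over 4 against 4 exposure replicates, again for an entry chosen by its p in the same fish. For PFOS70 the type I chains col1a1b and col1a1a stood at −0.50 ± 0.26 and −0.49 ± 0.29 (adjusted p = 1.0 in limma for each). The type I chain col1a1a averaged 3.15 ± 0.61 in POP10, 2.99 ± 0.41 in POP70, 2.97 ± 0.60 in PFOS10, 2.86 ± 0.58 in PFOS70 and 3.35 ± 0.84 in Control fish (SD, n = 16 each), and the highest of all was Control female 3_1 at 5.24.

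A miss of the threshold does not show that exposed and control fish were alike, and the intervals say how far they could differ. They come from the model without number, although the numbers pair the conditions by age. The correlation between fish of an exposure replicate was 0.22 in that model and 0.077 with number as a term. The intervals could therefore be wider than those of a model that keeps the pairing, which are not given here. The median SE of a difference was 0.27 on the log2 scale. The 95% interval lay within 1 log2 unit of 0, a 2-fold change, for 29 of 41 entries with POP10, 31 with POP70, 28 with PFOS10 and 26 with PFOS70, and within 0.5 for 11, 12, 13 and 12 of them. Over the 41 entries the median difference was −0.0046 for POP10, 0.05 for POP70, −0.03 for PFOS10 and 0.0031 for PFOS70, beside 0.02, 0.01, 0.06 and 0.04 over all entries tested.

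**Figure D2:**
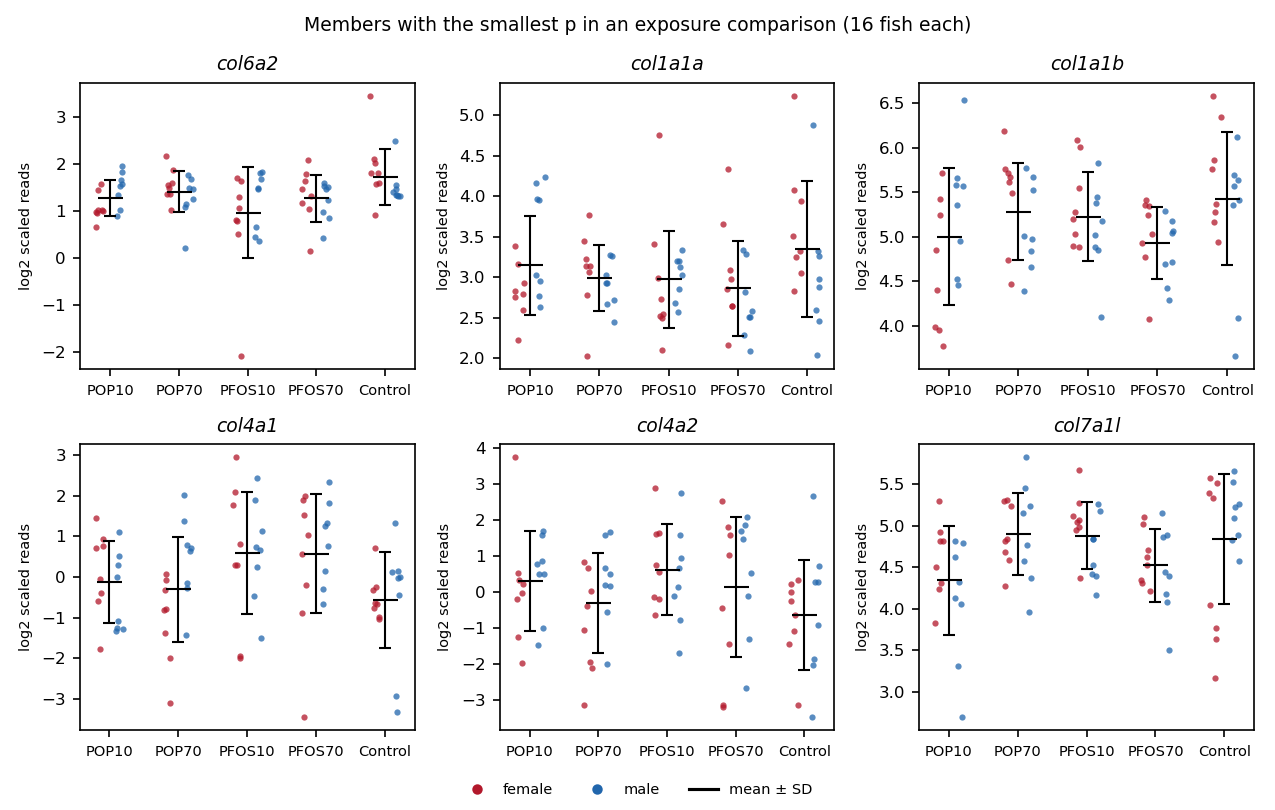
Log2 level of 6 collagen genes (vertical axis) in each fish of POP10, POP70, PFOS10, PFOS70 and Control, females in red and males in blue, with the mean and SD of 16 fish. In every panel the 5 conditions overlap; col6a2 has 1 PFOS10 female at −2.09 and 1 Control female at 3.45, and col4a1 runs from −3.45 to 2.95.

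Genes that build, cut and bind collagen gave the same count of calls in the exposures. Of 7 lists, 0 genes were called by limma in any of the 4 exposures or in any exposure by sex: chaperones and modifying enzymes (20 tested), processing and cross-linking enzymes (13), degrading enzymes and their inhibitors (16), basement membrane partners such as laminins (15), small proteoglycans and matrix partners (10), collagen receptors (13) and growth factor signals that drive collagen genes (17). Their median log2 differences ran between −0.11 (small proteoglycans in POP10) and 0.18 (degrading enzymes in PFOS70).

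Whether an exposure acted differently in females and males was tested as an interaction. No entry was called by limma (0 of 41, background 0%), and voom called 0. An unadjusted p under 0.05 in limma was found for 5 of 41, beside 4.27% of all entries tested, and these shares were not compared by a test. The type I chain col1a1b (unadjusted p = 0.0146, adjusted p = 0.87 in limma) averaged 4.67 ± 0.74 in POP10 females and 5.33 ± 0.68 in POP10 males, beside 5.66 ± 0.58 in Control females and 5.19 ± 0.85 in Control males (SD, n = 8 each). In the other exposed groups females were at 5.46, 5.36 and 5.02 and males at 5.10, 5.08 and 4.84 in POP70, PFOS10 and PFOS70. The type II chain col2a1a (unadjusted p = 0.0149) averaged 1.96 in POP10 females and 2.42 in POP10 males, beside 2.39 in Control females and 1.96 in Control males, and the type IX chain col9a3 (unadjusted p = 0.0176) 3.24 and 3.77 beside 3.48 and 3.5.

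Between the sexes, over all 5 conditions, 0 of 41 entries were called by limma, against 2.03% of all entries tested, and voom called 0. An unadjusted p under 0.05 in limma was found for 6 of 41. Over all entries tested that share was 14.3%, close to that of the 41, so the count is no trait of the collagens. The entry nearest to a call was col5a1, the chain of type V collagen that starts fibrils of type I. Its lowest, median and highest log2 levels were 3.15, 3.97 and 4.68 in females and 3.28, 4.26 and 5.09 in males, ranges that overlap widely. The female minus male difference was −0.26 ± 0.08 (SE), with an adjusted p of 0.053 in limma. Females averaged less than males in 14 of 20 exposure replicates and in all 5 conditions, and a permutation test of 100000 sign changes over the 20 gave a two-sided p of 0.018. This test was run, with no correction, only on the 6 entries whose unadjusted p in the same fish was under 0.05, so it adds no independent support, and it gave between 0.00832 and 0.0711 for them. Under 12 of 16 alternatives col5a1 was not called, with an adjusted p of up to 0.29 and a difference as small as −0.21. It passed the threshold under the other 4: with adjusted p = 0.0453 among entries of at least 10 on the linear scale, 0.0482 without number 5, 0.0267 without the 2 fish high in skin markers, and 0.047 without the control male lowest in the composition component.

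The short chain col8a1b, made by vessel cells and the cornea in mammals, had its lowest, median and highest log2 levels at −1.42, 0.76 and 3.26 in females and 0.05, 1.35 and 3.44 in males. No male lay below 0.05, and the medians correspond to 14.5 reads in females and 24 in males. The difference was −0.63 ± 0.21, adjusted p = 0.10 in limma, and females averaged less in 15 of 20 exposure replicates (permutation p = 0.00832). The FACIT chains col9a3 at −0.18 ± 0.06 (adjusted p = 0.0905 in limma) and col16a1 at −0.21 (adjusted p = 0.18) and the type VI chain col6a3 at −0.13 (adjusted p = 0.32) had lower female means, and col14a1a, another FACIT chain, had a higher one at 0.12 (adjusted p = 0.18, permutation p = 0.0711). Without number 3, col14a1a passed with an adjusted p of 0.0457 in limma, and without number 5, col8a1b passed with 0.047. The interval of the sex difference lay within 1 log2 unit of 0 for 39 of 41 entries and within 0.5 for 29.

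Markers of other cells differed between the sexes in the same data, where 2.03% of all entries were called. Of those 329 calls 257 were lower in females and 72 higher. Of 9 oligodendrocyte markers tested, 7 were called lower in females, sox10 by −0.37 among them, and their summed level ran from 5133 to 11935 with a median of 7887 in females and from 4584 to 16512 with a median of 9666 in males. The mural markers acta2 and tagln were called at −0.40 and −0.34 (2 of 8), and their list summed to between 175 and 283 in females and between 161 and 297 in males. Of the genes listed as cartilage markers acana was at −0.73, hapln1b at −1.52 and hapln1a at 0.47 (3 of 8 called), with sums of 18.7 to 58.9 in females and 22.5 to 66.5 in males. Whether their RNA in these brains came from cartilage was not tested. The other calls were the endothelial marker flt1 at −0.26 (1 of 13), the red cell globins hbaa2 at −1.12 and hbba2 at −0.91 (2 of 8), the bone marker entpd5a at −1.07 (1 of 3), the microglia markers apoeb at −0.48 and mpeg1.1 at −0.32 (2 of 11), the radial glia markers id1 at −0.35 and cx43 at −0.23 (2 of 9) and the neuron marker nefma at −0.41 (1 of 11). No marker of meningeal fibroblasts (0 of 8) or skin (0 of 5) was called. The part of these cells in the collagen values was not tested. Of the collagen pathway lists, pdgfaa, a growth factor for fibroblasts, was called at −0.96 (adjusted p = 0.0448 in limma), and no other gene of the 7 lists was called by sex.

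**Figure D3:**
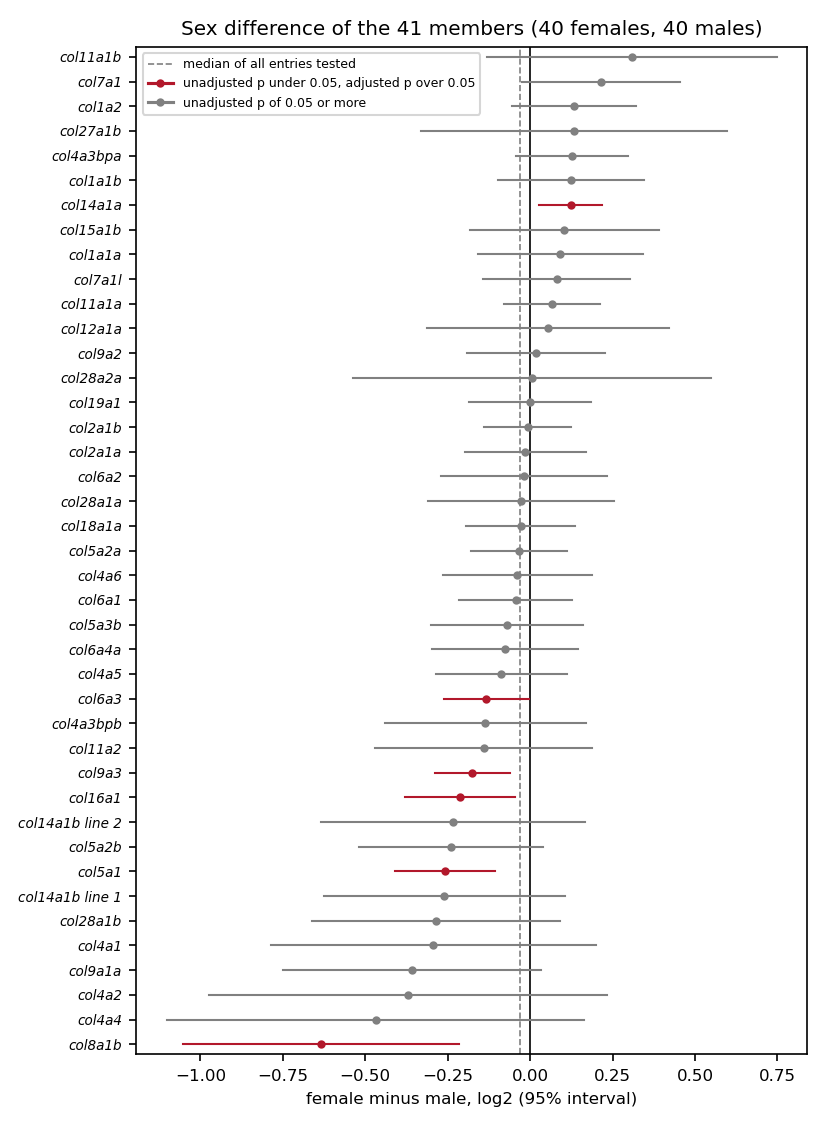
Female minus male difference in log2 level (horizontal axis) with its 95% interval for each of the 41 entries, red where the unadjusted p was under 0.05. Of the 6 red entries 5 lie below 0, col14a1a lies above it, and no entry passed the adjusted threshold.

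The exposure replicate number, which goes with age, gave the calls. In the test of any number 11 of 41 entries (26.8%) were called by limma, against 53.3% of all entries tested, and the difference between these shares was not tested. The 11 were col4a3bpb, col1a1b, col11a2, col4a1, col28a1b, col4a3bpa, col16a1, col14a1b on both lines, col7a1l and col6a3, and 2 of them are no collagens. Number accounted for a median of 5.58% of the variance of an entry among the 41 and 14.9% over all entries tested, condition for 3.62% and 4.66%, and sex for 0.92% and 0.90%. The share between fish of the same sex in the same exposure replicate had a median of 43.3% among the 41 and 39.0% over all entries. These are raw shares, not corrected for how many groups each term compares. A term with many groups takes a larger share without any real difference, so the terms cannot be ranked by them.

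The type I chain col1a1b ran at lowest, median and highest log2 levels of 4.10, 5.47 and 6.58 at 219 days, 3.66, 4.75 and 5.83 at 226 days, 3.98, 5.16 and 6.01 at 233 days and 4.39, 5.46 and 6.54 at 240 days. The fish of 226 days sat below the others, with ranges that overlap, and the levels followed no single direction with age. Against number 6 it fell by 0.75 ± 0.18 on the log2 scale in number 5 (adjusted p = 0.0032 in limma). The type XI chain col11a2 went the other way at that age. Its medians were 0.20 at 219 days, 0.97 at 226, −0.22 at 233 and 0.44 at 240, and it rose by 0.97 ± 0.26 in number 5 (adjusted p = 0.0103 in limma), a change at a median of 19 reads in number 5 and 10 in number 6.

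In number 5 against number 6, 4 of 41 entries (9.76%) were called, beside 10.8% of all entries. The other 2 were the beaded-filament chain col28a1b, with a median of 0.63 in number 5 and 1.57 in number 6 and a difference of −0.95 ± 0.31 (adjusted p = 0.035 in limma), and the FACIT chain col16a1, with 2.89 in number 5 and 3.37 in number 6 and a difference of −0.48 ± 0.14 (adjusted p = 0.0164). Of these 4 entries 1 was higher and 3 were lower in number 5, and with quantile normalization col4a4 was called in place of col16a1, which made 2 higher and 2 lower. Over all entries 1107 calls were higher in number 5 and 639 were lower. Without the PFOS70 fish of number 5 the col28a1b difference was −0.80 and was no longer called. It also lost the call on means per sex and exposure replicate, without number 4, and with the composition component, where it was −0.54 (adjusted p = 0.20 in limma). The col16a1 call was lost with the component too, at −0.37 (adjusted p = 0.0626). In number 4 against number 6, 3 entries (7.32%) fell, beside 15.5% of all entries called. These were col14a1b, at −0.98 ± 0.30 on line 1 and −0.93 ± 0.33 on line 2 (adjusted p = 0.0182 and 0.0432 in limma), and col7a1l at −0.50 ± 0.18 (adjusted p = 0.0483). Over all entries 1943 of 2499 calls were higher in number 4 and 556 were lower. The line 2 medians were 4.73 in number 4 and 5.41 in number 6. Line 2 lost its call with voom and on means per sex and exposure replicate. The col7a1l call was lost with no filter, with voom, without number 5 and without the control male lowest in the composition component. The 3 comparisons share the 20 fish of number 6.

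In number 3 against number 6, the widest span of age, 6 of 41 entries (14.6%) fell and 0 rose, beside 34.8% of all entries called. Of all 5627 calls there 4785 were lower in number 3 and 842 higher, so a fall was the common direction. The basement membrane chain col4a1 had lowest, median and highest levels of −3.45, −1.01 and 2.01 in number 3 and −1.99, 0.94 and 2.95 in number 6, a median of 4 reads against 16. Its difference was −1.66 ± 0.39 (adjusted p = 0.000422 in limma), and col4a2 was at −1.38 ± 0.51 (adjusted p = 0.0263), with 4 reads in number 3 and 14.5 in number 6 at the median. Both chains stood at the level limit over all fish and were kept through the numbers where they were higher. Their falls are therefore not free of the choice of entries. The fibrillar chain col27a1b was at −1.12 ± 0.39, col28a1b at −1.09 ± 0.31, col7a1l at −0.48 ± 0.18 and the ceramide carrier col4a3bpb at −1.22 ± 0.23, each called. The col4a2 call was lost without number 4, with a pseudocount of 1 and with quantile normalization, and that of col7a1l without the 2 fish high in skin markers (−0.43). All 6 lost the call with the composition component as a covariate, and col4a2 and col27a1b changed sign, to 0.48 and 0.41. The component itself averaged 0.61 at 219 days, −0.06 at 226, 0.33 at 233 and −0.88 at 240. Adjusting for a component that differs by number also takes out differences between numbers. The lost calls therefore cannot tell what lay behind these differences, which was not tested. The scale mattered as well: quantile normalization took the median difference of all entries from −0.08 to 0.08 in this comparison. After it 13 of the 41 were called, 11 higher and 2 lower in number 3. Of the 6 calls only 2, col4a1 and col4a3bpb, remained then, and col4a2, col27a1b, col28a1b and col7a1l lost theirs.

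The partners of collagen were counted in the same comparison of numbers 3 and 6, beside the 34.8% of all entries called there, of which 5627 calls became 20 with the component. The shares of the lists lay on both sides of 34.8%, from 15.4% to 40%, and no difference from it was tested. Most of the 5627 calls, 4785, were lower in number 3, so falls in the lists follow the direction of all entries. Of the basement membrane partners 6 of 15 fell, the laminin chains lama1, lamc1, lamc3 and lama5, the perlecan core hspg2 and smoc2, with lama1 at −1.05 and hspg2 at −1.13. Of the degrading enzymes and inhibitors 6 of 16 fell, the membrane-bound proteases mmp16b at −2.26, mmp17a at −2.04, mmp24 at −1.81, mmp15b and mmp15a and the inhibitor reck. Of the growth factor genes 5 of 17 fell, tgfbr1b at −1.87 and pdgfba at −1.51 among them. Among the chaperones and modifying enzymes 3 fell and 2 rose (of 20), the hydroxylase chain p4ha1a at −1.54 and its relative p4ha2 at 0.21. The small proteoglycans gave dcn at −0.50, bgnb at −0.97 and bgna at 0.40 (3 of 10), the receptors ddr2l at −1.70 and itga1 at −0.72 (2 of 13) and the processing enzymes adamts2 at −1.06 and loxl3b at 0.32 (2 of 13). The mean of the degrading enzymes followed the component with r = 0.95 over fish and that of the basement membrane partners with r = 0.84, and so did that of the neuron markers with r = 0.93.

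**Figure D4:**
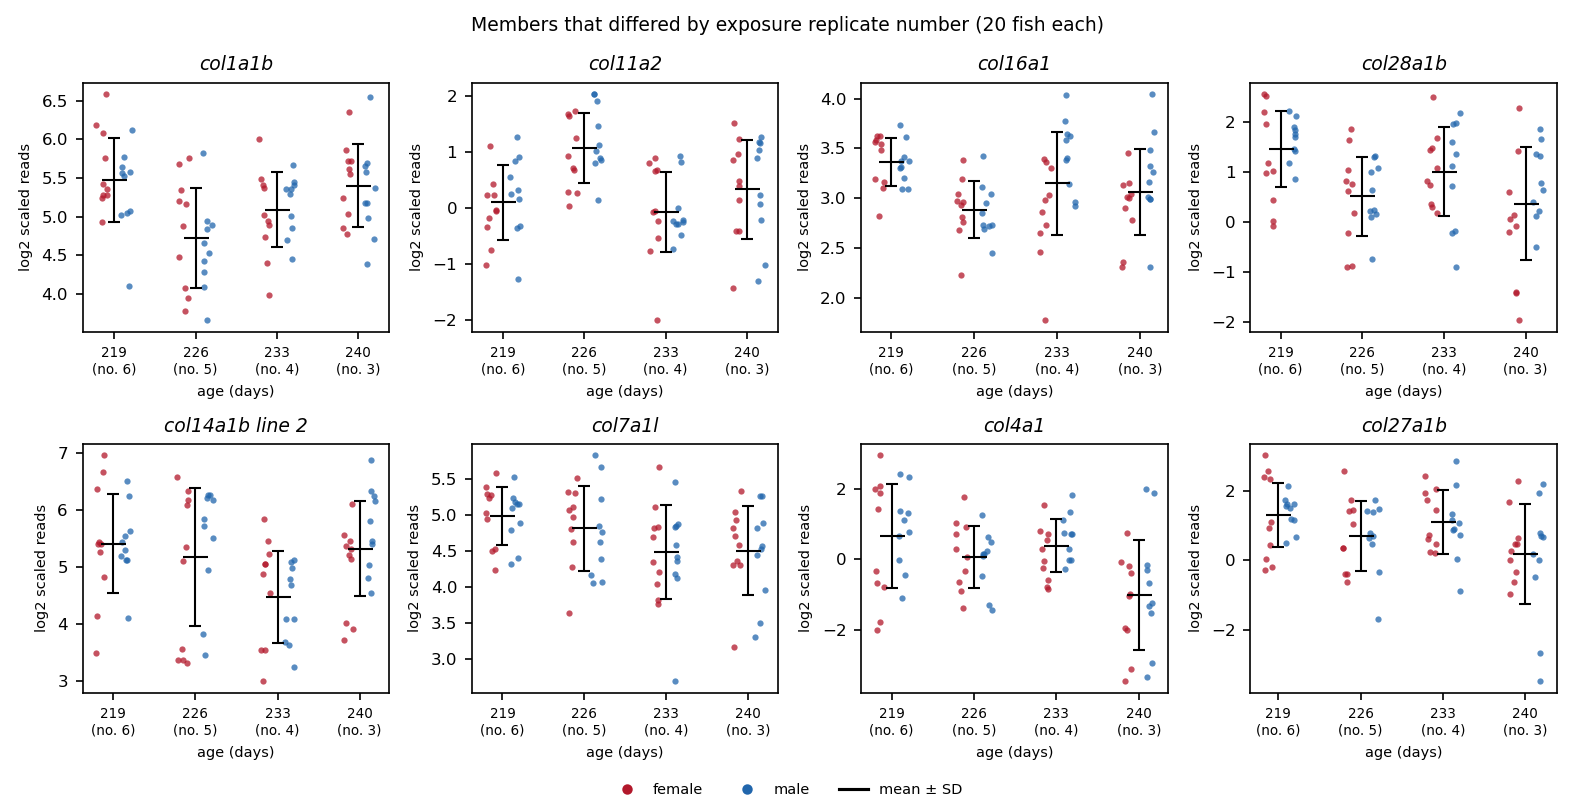
Log2 level (vertical axis) of 8 entries at 219, 226, 233 and 240 days (numbers 6, 5, 4 and 3; horizontal axis), each point a fish. col1a1b is lowest and col11a2 highest at 226 days, and col4a1 and col27a1b are lowest at 240 days, with overlap between all ages in every panel.

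Chains of the same collagen type were compared over the 80 fish, on deviations from the 10 means of condition and sex, in 39 pairs, among them pairs of sister genes and the 2 lines of col14a1b. Fish of an exposure replicate share their exposure as larvae and their age, so p-values over fish treat them as more independent than they are. The type I chains col1a1a and col1a2 (chr3:23221047-23239458 and chr19:40983221-41002980), on different chromosomes, went together with Pearson's r = 0.83 and Spearman's rho = 0.76 (permutation p = 1e-05 for each, the smallest that 100000 permutations give; adjusted p = 0.00013 and 9.75e-05). The r was 0.77 without the 2 fish farthest in col1a1a and ran from 0.74 to 0.91 within numbers. The other type I gene, col1a1b, had r = 0.36 with col1a2 (adjusted p = 0.0242, 0.11 to 0.85 within numbers) and 0.21 with its sister gene col1a1a (adjusted p = 0.24, 0.02 to 0.68 within numbers). By rank, col1a1b and col1a2 had rho = 0.27, which did not pass (permutation test, adjusted p = 0.0907).

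Among type IV chains 2 pairs passed, and each lies side by side in the genome. The genes col4a6 and col4a5 lie 752 bases apart on chromosome 7 on opposite strands and had r = 0.56 and rho = 0.56 (adjusted p = 0.00013 and 9.75e-05, 0.06 to 0.74 within numbers). The genes col4a1 and col4a2 lie 90940 bases apart on chromosome 9, also on opposite strands, and had r = 0.55 and rho = 0.58 (adjusted p = 0.000195 and 9.75e-05, 0.18 to 0.69 within numbers). With the composition component col4a1 and col4a2 had r = 0.79 and 0.72, while col4a5 and col4a6 had 0.15 and 0.23. Neither the part of the component nor that of the position in these pairs was tested. The other 8 pairs of type IV chains had r between 0.13 and 0.27, and none passed an adjusted p of 0.05 (0 of 8). Other neighbours had little relation: col4a4 and col4a3, which overlap on opposite strands of chromosome 15, had r = −0.05 (col4a3 was under the level limit), col19a1 and col9a1b 0.04 and col9a2 and col16a1 0.14. The type VI chains col6a1 and col6a2, 36207 bases apart on chromosome 11, had r = 0.42 (adjusted p = 0.000546), which ran from 0.06 to 0.81 within numbers, while col6a3 had r = 0.00059 with col6a1 and 0.09 with col6a2. In all, 8 of 39 pairs passed by Pearson's r, and the median r was 0.17. Of these 8, col1a1b with col1a2 and col9a1a with col9a2 did not pass by Spearman's rho (permutation test, adjusted p = 0.0907 and 0.0515). The 2 lines of col14a1b, which are the same gene, were 1 of the 8, with r = 0.89.

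The type I chains col1a1a and col1a2 also went with skin markers. Over fish, the mean of the 5 skin markers tested had r = 0.67 and rho = 0.57 with col1a2 and r = 0.67 and rho = 0.54 with col1a1a (permutation p = 1e-05 for each; adjusted p = 0.000364 and 0.000469 over 328 relations), and r was 0.54 for both without the 2 fish farthest in the markers. Within numbers the r with col1a1a ran from 0.31 to 0.88. The keratinocyte genes had r between 0.49 and 0.67 with col1a1a and col1a2 and between 0.05 and 0.25 with col1a1b. Of the 12 skin markers 5, aep1, agr1, cyt1l, krt92 and krt93, had a median of 0 reads. The sum of the list ran from 35.1 to 411 in POP10, 38.0 to 429 in POP70, 38.8 to 2517 in PFOS10, 33.8 to 150 in PFOS70 and 35.4 to 923 in Control fish, and the 5 skin markers tested had median log2 differences from Control of −0.21 for POP10, −0.55 for POP70, −0.15 for PFOS10 and −0.50 for PFOS70, with 0, 0, 2 and 0 of the 5 higher. The col1a1a differences were −0.36 in POP70 and −0.49 in PFOS70, and the part of the skin markers in them was not tested.

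To check the working name of the set, the 41 entries were set beside the marker lists. With the mean of the meningeal fibroblast markers 0 of 41 entries had an r over 0.5, the highest being col4a2 at 0.45. With endothelial markers 4 did, col4a3bpb at 0.72, col4a1 at 0.66, col4a2 at 0.62 and col27a1b at 0.62, and with mural markers 3, of which col4a1 was highest at 0.61. Markers of the mural lymphatic endothelium had an r over 0.5 with 2 entries, of which col27a1b was highest at 0.53. No entry passed 0.5 with cartilage, bone or skeletal muscle markers. The endothelial mean itself followed the composition component with r = 0.77. The component had r = 0.94 with col4a3bpb, 0.79 with col4a1, 0.78 with col27a1b, 0.72 with col4a2 and 0.65 with col28a1b (adjusted p = 8.2e-05 for each over 41 relations; permutation p at its smallest, 1e-05). These were the 5 of 41 entries (12.2%) with an r over 0.5 in size, beside 33.7% of all entries tested. The component was made from the tested genes without the collagen-named entries. These shares are therefore not alike, since the other genes shaped the component and the 41 did not. For the marker lists, the share of all tested entries with an r over 0.5 is not given here, so those counts have no background beside them. Covariation over whole brains also does not show which cells made the RNA. These counts cannot decide the working name. It is not used for the set as a whole, and the entries are called collagen-named entries.

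**Figure D5:**
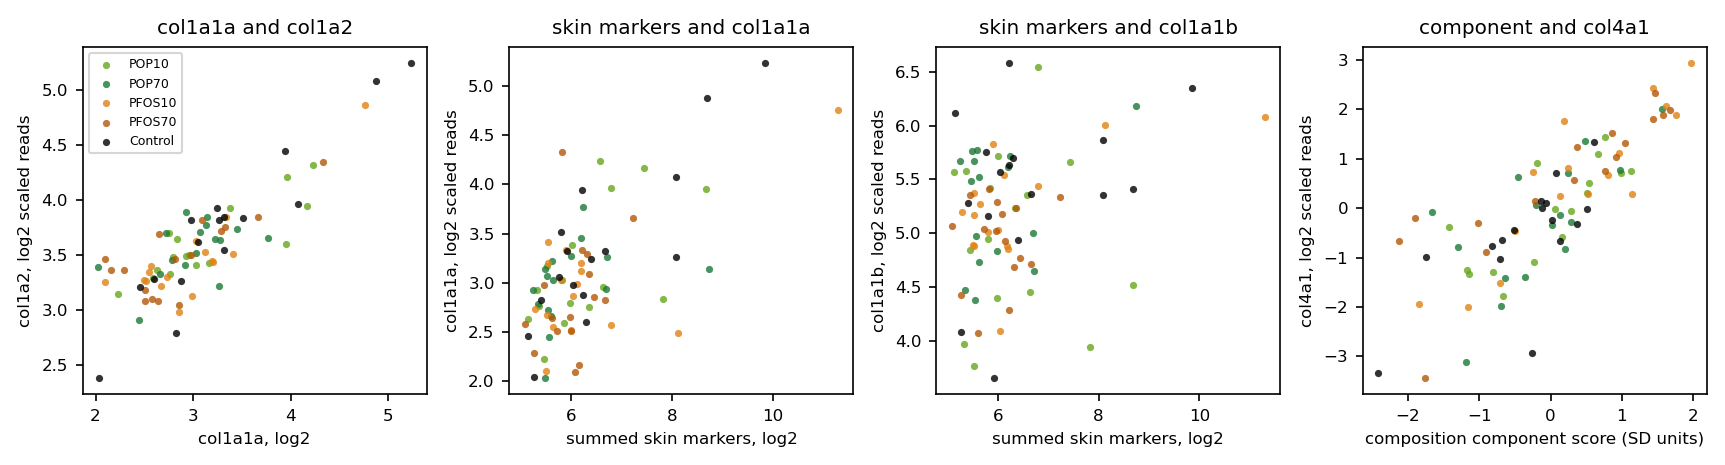
The panels plot 4 pairs of measures over 80 fish, coloured by condition: col1a1a with col1a2, the summed skin markers with col1a1a and with col1a1b, and the composition component with col4a1. col1a1a rises with col1a2 (r = 0.83) and with skin markers, col1a1b scatters widely at low skin markers, and col4a1 follows the component (r = 0.79).

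The genes whose levels were most like an entry over the 80 fish were looked up among all tested entries outside the collagen-named ones. Other collagens could therefore not appear, and col1a1a with col1a2 (r = 0.83) and the 2 lines of col14a1b (r = 0.89) were more alike than any gene listed for them. For col2a1b they were elmo2 (r = 0.79), acin1b (0.76) and ewsr1a (0.75), and elmo2 lies 0.033 Mb away on chromosome 11. For col18a1a they were pdgfra (0.71), vasna (0.70) and sema4ab (0.67). The gene pdgfra was also among the 8 most like col4a6 (0.58), after rbm47 (0.59), dclk1b (0.59) and mef2cb (0.58). It belongs to the meningeal fibroblast list, whose mean had an r over 0.5 with 0 of 41 entries. For col1a1a and col1a2 the first was icn (0.66 and 0.67), with krt5 and krt4 among the first 8 of both. The most alike gene stood on the entry's own chromosome for 12 of 41 entries (29.3%), beside 18.7% of all entries tested, a difference that was not tested. For col7a1l it was si:dkey-117n7.4 (0.88), which overlaps it. For col14a1b line 2 it was dnajc8 (0.73), 0.0077 Mb away, for col7a1 ttll3 (0.70), 0.017 Mb away, and for col6a4a si:ch73-215d9.1 (0.74), 0.049 Mb away. These examples stand outside the naming rule and all lie close by, which most entries did not share. Of 38 entries with a tested gene within 100000 bases, collagens aside, the best such neighbour ranked first for 6 and in the first 10 for 7. Those ranks were among all tested entries. For col19a1 the first 4 all lay on its chromosome 13, hps1 (0.75) at 1.57 Mb and si:dkey-85a20.4 (0.73) at 0.16 among them.

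The spread between single fish was set beside that over all genes. The SD between fish of 1 sex in 1 exposure replicate had a median of 0.54 log2 units over the 41 entries and 0.34 over all tested, which was 2.56 and 2.87 times the SD that counting reads gives. The 2 entries with the widest spread against counting, chosen after their values were seen, were col14a1b line 2 at 9.23 times and col12a1a (chr17:49785495-49978986), a FACIT chain, at 7.87 times. The levels of col12a1a left a gap: 17 fish lay from 3 to 3.5, 17 from 3.5 to 4, 4 from 4 to 4.5 and 20 from 4.5 to 5. Fish under 4.2 numbered 40 of 80, 20 of 40 females and 20 of 40 males, and in POP10, POP70, PFOS10, PFOS70 and Control 7, 5, 12, 9 and 7 of 16. The value of 4.2 was chosen after the levels were seen. Both sides of it occurred in 16 of 20 exposure replicates. No groups were formed from this gap and nothing was tested on it.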

How the data were processed

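Whole-brain RNA of 80 adult fish was measured as poly-A RNA-seq, per the labels' protocols; the kit is not described as marking strand. GRCz11 is the genome, and STAR 2.5.4b, Trim Galore 0.4.5, R 3.5.0 and DESeq2 are the tools, that the submitters listed in their processing notes, with no roles given. How reads were counted and the libraries scaled is not given in the sources used here. What the authors deposited is a table of expression on a log2 scale after normalization, with a line for each entry and a column for each fish. All values under 5000 reads (100%) were whole numbers of reads within 0.02 once divided by the worth of 1 read, a count of 0 stands as 0.9 read, and depths are totals of those recovered reads.

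Entries with a mean log2 level of at least 0 over the 80 fish were tested (16170 of 23473). limma 3.58.1 in R 4.3.3 fitted 10 means of condition and sex and allowed fish from the same exposure replicate to be correlated (0.22), a mean-variance trend, two-sided tests and Benjamini-Hochberg adjustment over all tested entries at 0.05. Comparisons of numbers used the same model with number as a term. The fit was checked on simulated data. Nothing in the labels says more of separate tanks, so p-values measure the spread between these fish and exposure replicates. The numbers pair the conditions by age per the labels: deviations of same-numbered exposure replicates had a median correlation of 0.26 over 40 pairs, 35 of them over 0.1. Means over exposure replicates were compared by exact permutation, and relations over fish by 100000 permutations.

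The entries and the gene lists were chosen with earlier results of these data known. Named are the 3 highest entries of each class and, in each comparison, the called entries or, with fewer than 3, the 3 of smallest p; other named entries are marked. Alternatives changed the filter, pseudocount, normalization, model and fish. voom in limma was run on the recovered reads. Sequences were not used here.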

Additional observations from a re-analysis of the deposited data

Results flagged for a closer look

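In each of the 10 groups of 8 fish of 1 sex and condition, the highest and lowest fish were compared with the nearest of the others, as the gap over the range of the group. For 21 collagen-named entries this gave 210 groups, and in 20 of them, on 14 genes, 1 fish stood apart. Chance alone marks about 1 in 20 groups in this way, so single cases carry little weight. The share found, 20 of 210, was larger than that, but the 2 shares are not a like comparison, and neither the excess nor a cause was tested. The 21 were the entries named in the comparisons above, by call or smallest p in these same fish. Their levels are not independent of each other, and several of the marked fish held 3 reads or fewer. Levels are on the deposited log2 scale, fish are named by number and order within it, and the nearest other fish of the group follows each value.

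The type VI chain col6a2 had 4 such fish: PFOS10 female 6_1 was low at −2.09 (2 reads), beside 0.50, POP70 male 5_1 was low at 0.22, beside 1.08, Control female 3_1 was high at 3.45, beside 2.11, and Control male 4_2 was high at 2.49, beside 1.55. Its partner in type VI, col6a3, was low in PFOS10 female 5_1 at 3.17, beside 3.55, and high in POP10 male 4_1 at 3.96, beside 3.74. Control male 4_2 was also high in the type I chain col1a1a at 4.88, beside 3.32, and its skin markers summed to 413.

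The basement membrane chain col4a2 was high in POP10 female 5_1 at 3.75 (123 reads), beside 0.52, and col4a1 was high in Control female 4_1 at 0.71 (14 reads), beside −0.25. The fibrillar chain col27a1b was low in PFOS10 male 5_1 at −1.69 (3 reads), beside 0.71, and in Control male 3_2 at −3.48 (0 reads), beside 0.66. Control male 3_2 was also low in the ceramide carrier col4a3bpb at 1.06, beside 3.53, and it had the lowest composition component of all fish, −2.41.

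Among cartilage-type chains col9a2 was high in PFOS70 female 6_1 at 3.15, beside 2.51, and in POP70 female 3_1 at 3.25, beside 2.19. The chain col9a3 was low in PFOS70 male 3_2 at 2.72, beside 3.38, col2a1a was low in PFOS10 male 3_1 at 1.19, beside 2.04, and col11a2 was low in POP10 female 4_1 at −2.0 (3 reads), beside −0.03. The remaining fish were POP70 male 3_2, high in col14a1a at 6.72, beside 6.08, PFOS70 male 4_1, high in col5a1 at 4.91, beside 4.34, and POP70 female 3_2, low in col28a1b at −1.96 (2 reads), beside −0.22.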

How the results depend on the processing

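No collagen-named entry was called in any of the 4 exposures, in any exposure or in exposure by sex under any alternative run, the replicate block (number as a term) included, and the block changed no other call; for female against male it called 298 of all entries, against 329 without it, and 0 collagen-named entries in both. Leaving out the 2 fish high in skin markers, the PFOS70 fish of number 5 or the control male lowest in the component were alternatives chosen after seeing the data. For female against male the count of 0 became 1 among entries of at least 10 on the linear scale, 1 without the 2 skin-marker fish, 1 without that control male and 0 to 2 when 1 number was left out. For any number the count of 11 became 7 with the linear limit of 10, 6 with the composition component and 6 to 8 when 1 number was left out. With quantile normalization it rose to 15, of which 8 were among the 11, and 3 of the 11 were lost. For number 5 against 6 the count of 4 became 1 with the linear limit (3 to 4 when 1 number was left out), and for number 4 against 6 the count of 3 became 1 with voom (2 to 3). For number 3 against 6 the count of 6 became 2 with the linear limit, which drops low entries from the test, 13 with quantile normalization and 0 with the component (5 to 6 when 1 number was left out), and the component turned col4a2 to 0.48 and col27a1b to 0.41. Over all entries that comparison had 5627 calls, and 20 with the component. The component comes from the same libraries and differs by number, so calls lost with it cannot tell what lay behind the differences. Where no reason is given, the cause was not tested. Of 405 alternative values of 28 named differences, 375 kept direction and side of the threshold, 23 lost the call, 5 gained it and 2 changed sign. Depth limits 12 of the 41 entries, whose median was under 30 reads.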
